A study of Rattus norvegicus with 12 samples.

Results

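Metallothioneins and zinc transporters were described in liver RNA of obese ZSF1 rats, 6 females and 6 males. The 6 genes were Mt1a and Mt2A, which encode metallothioneins, Slc39a14, Slc39a8 and Slc39a4, which encode zinc importers of the ZIP family, and Slc30a1, which encodes a zinc exporter of the ZnT family. They were named by symbol and chosen by their read counts in these same libraries, which were known when they were proposed, so their levels, sex differences and covariation are given as a description with no test. All 6 of 6 were among the 16478 genes of the count tables, and 6 of 6 passed the filter on low counts that left 9943 genes for testing.

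Each library held the RNA of 1 liver from an untreated animal of 16 weeks kept on rat chow under conventional housing, and the labels give no cage, litter or collection date. Both groups were of the strain ZSF1 and of the obese phenotype. The obese ZSF1 rat carries a defective leptin receptor gene from each parent, and no lean animals are among the samples analysed here, so no value can be read as an effect of obesity. Females are numbered 7, 8, 9, 10, 12 and 13 and males 1 to 6, so anything that followed the animal numbers cannot be told apart from sex.

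Metallothioneins are small cysteine-rich proteins that bind zinc and copper in the cytosol. Their genes are switched on by the zinc-sensing transcription factor MTF1, which binds metal response elements in their promoters, and they are also known to respond to glucocorticoid and to interleukin 6, the main inducer of the hepatic acute phase response. ZIP proteins move zinc into the cytosol and ZnT proteins move it out of the cell or into organelles, so that the liver, which takes up zinc during inflammation, buffers the metal between uptake, storage and export.

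The promoters of the metallothionein genes are shown because both genes moved together across animals, and that of Slc30a1 because it is a known MTF1 target in mouse. The symbols of all 6 genes matched the RefSeq gene table of build GRCr8, in which Mt1a is named Mt1, and 4 of the 6 had an entry in the RefSeq promoter table. Slc39a14 and Slc39a4 had none. The 250 bases before the annotated start are printed 5′ to 3′ along the gene, with capitals marking matches to the metal response element core, written TGCACNC or TGCGCNC, on either strand.
Mt1a: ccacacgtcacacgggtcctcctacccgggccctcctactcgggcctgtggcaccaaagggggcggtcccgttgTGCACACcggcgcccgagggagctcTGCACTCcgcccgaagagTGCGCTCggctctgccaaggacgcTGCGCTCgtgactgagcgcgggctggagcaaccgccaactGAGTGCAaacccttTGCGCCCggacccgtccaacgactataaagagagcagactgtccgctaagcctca
Mt2A: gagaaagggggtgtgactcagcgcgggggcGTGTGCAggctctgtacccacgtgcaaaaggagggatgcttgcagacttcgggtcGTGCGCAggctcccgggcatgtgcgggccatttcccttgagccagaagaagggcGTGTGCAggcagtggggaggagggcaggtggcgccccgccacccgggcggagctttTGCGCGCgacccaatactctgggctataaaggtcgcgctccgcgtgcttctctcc
Slc30a1: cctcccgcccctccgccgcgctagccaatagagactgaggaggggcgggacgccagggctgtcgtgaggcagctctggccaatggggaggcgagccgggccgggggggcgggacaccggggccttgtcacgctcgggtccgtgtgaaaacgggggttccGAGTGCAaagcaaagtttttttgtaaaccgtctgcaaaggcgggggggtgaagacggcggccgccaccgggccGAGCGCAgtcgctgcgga
They lie at chr19:10832976-10833225 on the minus strand for Mt1a, chr19:10838709-10838958 on the minus strand for Mt2A and chr13:106021769-106022018 on the plus strand for Slc30a1, all in GRCr8, which is not the build of the counts. The Mt1a promoter held 6 cores, that of Mt2A 4 and that of Slc30a1 2, while that of Slc39a8 held 0. Over the 33469 promoters of the table, 20.6% held at least 1 core, 4.9% at least 2 and 0.266% at least 4. In Mt1a the first base of the cores lay 176, 151, 133, 109, 69 and 55 bases before the start, and in Mt2A 220, 165, 111 and 55 bases before it. A TATA box, searched as TATAAA on either strand, began 32 bases before the start in Mt1a and 31 in Mt2A, and 12.9% of all promoters held 1 or more. The antioxidant response element core TGACNNNGC was found 1 time in each of the 4 promoters and in 10.1% of all promoters, and the STAT site TTCNNNGAA only in that of Slc39a8 and in 7.67% of all. No matches of different motifs overlapped in Mt1a, Mt2A or Slc30a1. These are matches of letters and were not tested as binding sites.

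Totals over genes were 6763879 to 24837602 counts in female libraries and 11381428 to 29232871 in male libraries. Levels are in CPM, counts scaled to library size, and at these depths 3 counts stood for 0.105 to 0.415 CPM. The tissue label was checked on hepatocyte genes, of which 7 of 8 listed were in the tables. Their summed level was 235000 to 312000 CPM in females, 196000 CPM in male 4 and 239000 to 257000 CPM in the other males. Male 4 stood apart from the other males in acute phase genes, with 16 of 18 listed genes above every other male. The exceptions were Hamp, the hepcidin gene, at 235 CPM in male 4 and 251 to 506 CPM in the other males, and A2m, at 14.4 CPM in male 4 and 11.3 to 20 CPM in the other males. In male 4 Orm1, an acid glycoprotein gene, stood at 9550 CPM, where the other males held 1360 to 1600 CPM and females 878 to 1110 CPM, and Lcn2, the lipocalin 2 gene, at 269 CPM, where the other males held 1.58 to 4.45 CPM and females 2.67 to 6.62 CPM. The sex differences of the metallothioneins are given with and without male 4, and for other genes this is done only where stated. Because these are bulk samples, fewer cells of a type and less RNA per cell cannot be told apart.

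The metallothionein transcripts averaged less in females than in males, were highest in male 4, and far more variable among animals of the same sex than almost any other gene. Mt1a had a lowest level of 4.81, a median of 12.8 and a highest of 27.8 CPM in females, against 7.5, 26.6 and 212 CPM in males. Female 12 was lowest and female 9 highest among females, and male 3 was lowest and male 4 highest among males. The sexes overlapped, with 2 of 6 males, numbers 2 and 4, above every female and 1 female, number 12, below every male. Mean levels of Mt1a were 15 ± 8.59 CPM in females and 54.5 ± 78.0 CPM in males (SD, n = 6 each). The fitted log2 fold change of females over males was -1.89 with a standard error (SE) of 0.776, a 3.71-fold difference, and it was -0.64, a 1.56-fold difference, without male 4.

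Mt2A followed the same order of animals as Mt1a within each sex. It had a lowest level of 1.35, a median of 2.85 and a highest of 10.8 CPM in females, against 2.83, 12.7 and 113 CPM in males. Again 4 of 6 males, numbers 1, 2, 4 and 6, were above every female, and 3 females, numbers 7, 10 and 12, were below every male. Mean levels of Mt2A were 4.11 ± 3.5 CPM in females and 27.8 ± 42.1 CPM in males (SD, n = 6 each). The fitted log2 fold change of females over males was -2.89 (SE 0.901), a 7.43-fold difference, and it was -1.53, a 2.88-fold difference, without male 4. Both genes are close paralogs, and their separate levels are uncertain. The counts keep rows named ambiguous and alignment_not_unique apart from the genes. How reads that fit both paralogs were divided between those rows and the genes is not given in the sources used here. Their sum ran from 6.16 to 38.6 CPM in females and from 10.3 to 325 CPM in males.

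**Figure D1:**
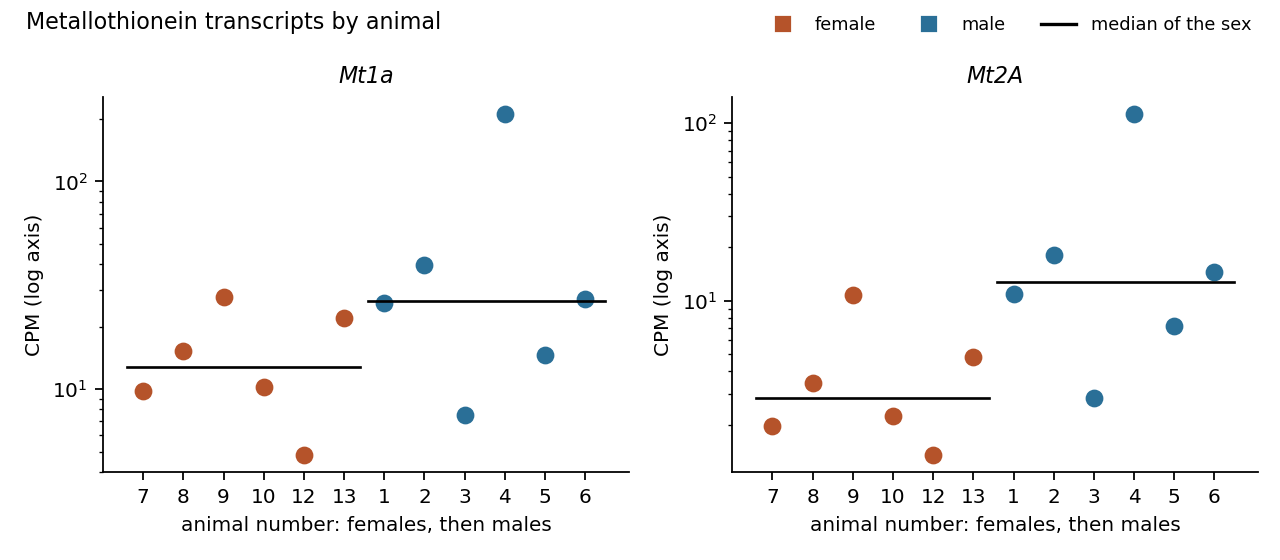
Level of Mt1a and Mt2A in each animal, in CPM on a log axis, with 1 point per animal and a line at the median of each sex (6 females, 6 males). Male 4, at 212 CPM of Mt1a and 113 CPM of Mt2A, lies above all other animals, and females 9 and 12 are the highest and the lowest female for both genes.

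The spread of the metallothioneins was larger than counting error. The coefficient of variation of Mt1a was 57.2% among females and 143% among males, 54.1% without male 4, where counting alone gives 7.78% in females and 5.13% in males on average. For Mt2A it was 85.2% in females and 152% in males, 56% without male 4, where counting gives 15.6% and, in males, 7.71%. The SD of log2 CPM (prior count 2) within sexes was 1.31 for Mt1a and 1.44 for Mt2A, against a median of 0.184 over all 9943 genes tested. Only 9 genes had a larger SD than Mt1a and 3 a larger one than Mt2A. Without male 4 the SD was 0.917 for Mt1a and 1.04 for Mt2A. Variation among animals was thus not confined to male 4: among the other 5 males the highest Mt1a level was 5.31 times the lowest, and among the 6 females 5.79 times.

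The share of the summed metallothionein counts that was assigned to Mt2A differed between most females and males. It was 20.2% ± 4.22 in females and 31.9% ± 2.99 in males (SD, n = 6 each). The lowest share was 16.8% in females, against 27.4% in males, and the highest was 28% in females, against 34.9% in males. Thus 5 of 6 females lay below every male, and female 9, at 28% (exact 95% Clopper-Pearson interval 22.8% to 33.6%, counting error only), lay above male 3, at 27.4% (20.8% to 34.8%). Male 4, with 2062 of 5928 counts, had a share of 34.8%, close to the 34.9% of male 6, whose summed counts were 1190. The share was taken from counts not scaled by gene length, so it cannot be read as a proportion of molecules. The length of each gene is the same for every animal, so it does not change the order of animals. Whether the assignment of reads between the paralogs moved with sex was not tested.

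**Figure D2:**
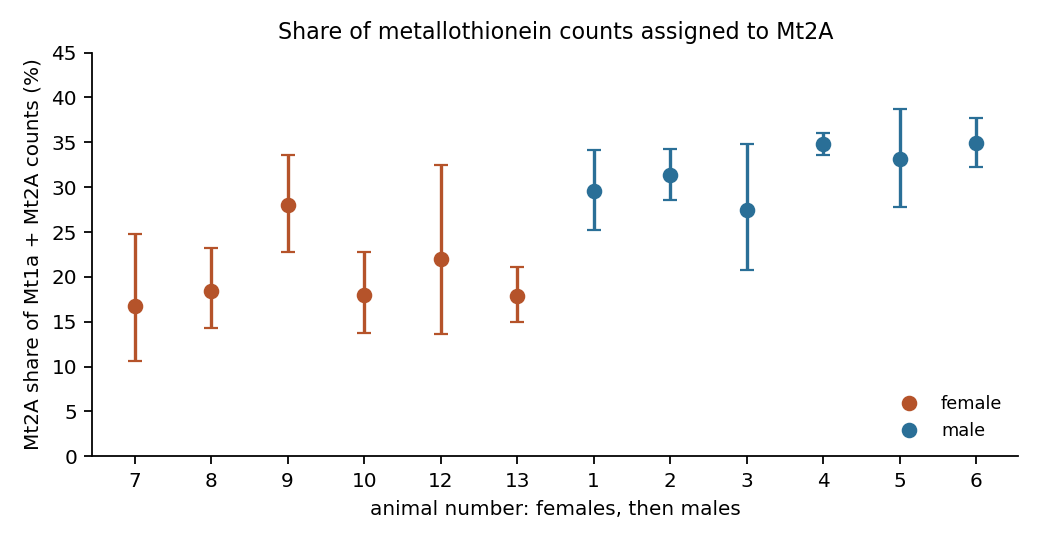
Share of the summed Mt1a and Mt2A counts assigned to Mt2A, in percent, for each animal with its exact 95% interval for counting error (6 females, 6 males). Females other than number 9 lie at 16.8% to 22% and males at 27.4% to 34.9%.

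Markers of blood-borne and resident immune cells were measured beside the high metallothionein level of male 4. Of 8 listed neutrophil markers 7 were in the tables, and their summed level was 1.09 to 3.13 CPM in females, 30.7 CPM in male 4 and 2.61 to 4.02 CPM in the other males. All 7 were higher in male 4 than in every other male. S100a9 stood at 14.1 CPM, S100a8 at 8.94, Itgam at 4.11, Mmp9 at 1.86, Mmp8 at 1.21, Mpo at 0.439 and Elane at 0.0549 CPM in male 4. Elane lay below the 0.165 CPM that 3 counts stood for in male 4, and female 12 held 0.0752 CPM of it. Female 9 held 0.416 CPM of Mpo, near the level of male 4. S100a8 and S100a9 are also on the acute phase list. Of 7 listed macrophage markers 6 were in the tables, at a summed 134 to 201 CPM in females, 354 CPM in male 4 and 81.7 to 146 CPM in the other males. Of these 6, Clec4f (75.3 CPM) and Cd163 (22.9 CPM) lay inside the female range in male 4. Male 4 was also highest in summed stellate markers, at 120 CPM against up to 90 CPM in other males and 104 CPM in females. It was highest in bile duct markers too, at 14.3 CPM against up to 8.6 and 10.8 CPM. Its sinusoidal endothelial and erythroid sums lay inside the range of the other males, and its hepatocyte sum was the lowest of all animals. The part of any of these cells in the metallothionein levels was not tested. Mt3 and Mt4, metallothioneins known from brain and from stratified epithelium, had 0 counts each in females, and 1 and 0 counts in males. For 0 counts over all 6 libraries the limit of 3 counts allows up to 0.0315 CPM in females and 0.0278 CPM in males.

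The zinc importer genes each averaged more in females. Slc39a14 and Slc39a8 varied less within a sex than the median gene, with SDs of log2 CPM of 0.0965 and 0.0703, while Slc39a4 varied more, with 0.269. Slc39a14 encodes ZIP14, which brings zinc, manganese and iron that is not bound to transferrin into hepatocytes. Its level was lowest at 314, median 328 and highest at 379 CPM in females, against 270, 279 and 323 CPM in males. Of 6 females 4 were above every male and 5 of 6 males were below every female, and male 1, at 323 CPM, stood above females 8 and 10 and above the 270 to 282 CPM of the other males. The mean was 335 ± 24.3 CPM in females and 285 ± 18.9 CPM in males (SD, n = 6 each), and the log2 fold change was 0.23 (SE 0.0654), or 1.18-fold. Male 4, with its high acute phase genes, had 280 CPM of Slc39a14 and lay inside the range of the other males.

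Slc39a8 encodes ZIP8, the closest relative of ZIP14, which in mouse liver retrieves manganese from bile. Its level was lowest at 64.8, median 70.7 and highest at 71.9 CPM in females, against 54.8, 58.2 and 63.2 CPM in males. All 6 females were above all 6 males. This was 1 of the 6 genes with no overlap between the sexes, beside 22.8% of all genes tested (10.1% with females higher), and nothing is read from it here. The mean was 69.7 ± 2.64 CPM in females and 58.7 ± 3.37 CPM in males (SD, n = 6 each), with a log2 fold change of 0.25 (SE 0.0512), or 1.19-fold. Slc39a8 was also the steadiest of the 6: its SD of log2 CPM within sexes was 0.0703, and 9672 of the 9943 genes had a larger one. Its coefficient of variation, 3.79% in females, was near the 3.24% that counting alone gives. In males it was 5.74%, above the 3.18% from counting. Of 7 listed sinusoidal endothelial markers 5 were in the tables, at a summed 82.1 to 103 CPM in females and 29.2 to 81.6 CPM in males, and their part in the level of Slc39a8 was not tested.

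Slc39a4 encodes ZIP4, the importer of the intestinal zinc uptake route, whose human gene is mutated in the zinc deficiency acrodermatitis enteropathica. Its level was lowest at 78.2, median 98.6 and highest at 124 CPM in females, against 57.6, 86 and 95.9 CPM in males. The ranges overlapped, with 3 females above every male and 2 males, numbers 2 and 4, below every female. The mean was 101 ± 17.4 CPM in females and 82.0 ± 15 CPM in males (SD, n = 6 each), with a log2 fold change of 0.29 (SE 0.135), or 1.23-fold, and 0.22 without male 4. Of 8 listed intestinal epithelium markers 6 were in the tables. Their summed level was 342 to 473 CPM in females and 654 to 816 CPM in males, most of it Apoa4, which hepatocytes also express, while the brush border phosphatase gene Alpi had 0 counts in every library.

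Slc30a1 encodes ZnT1, the exporter that carries zinc out across the plasma membrane. Its level was lowest at 53.5, median 69.5 and highest at 77 CPM in females, against 38.5, 52.2 and 61.8 CPM in males. Of 6 females 5 were above every male, and female 12 lay below males 1, 5 and 6. The mean was 68.7 ± 8.34 CPM in females and 51.3 ± 8.55 CPM in males (SD, n = 6 each), and the log2 fold change was 0.42 (SE 0.111), or 1.34-fold. Male 4, which had the most metallothionein transcript, had 45.9 CPM of Slc30a1. Male 2, next among males in metallothionein, had the lowest Slc30a1 of all animals at 38.5 CPM. Male 3, the male lowest in metallothionein, had 48.9 CPM, also below the male median. Female 12, the female lowest in metallothionein, was the lowest female in Slc30a1.

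**Figure D3:**
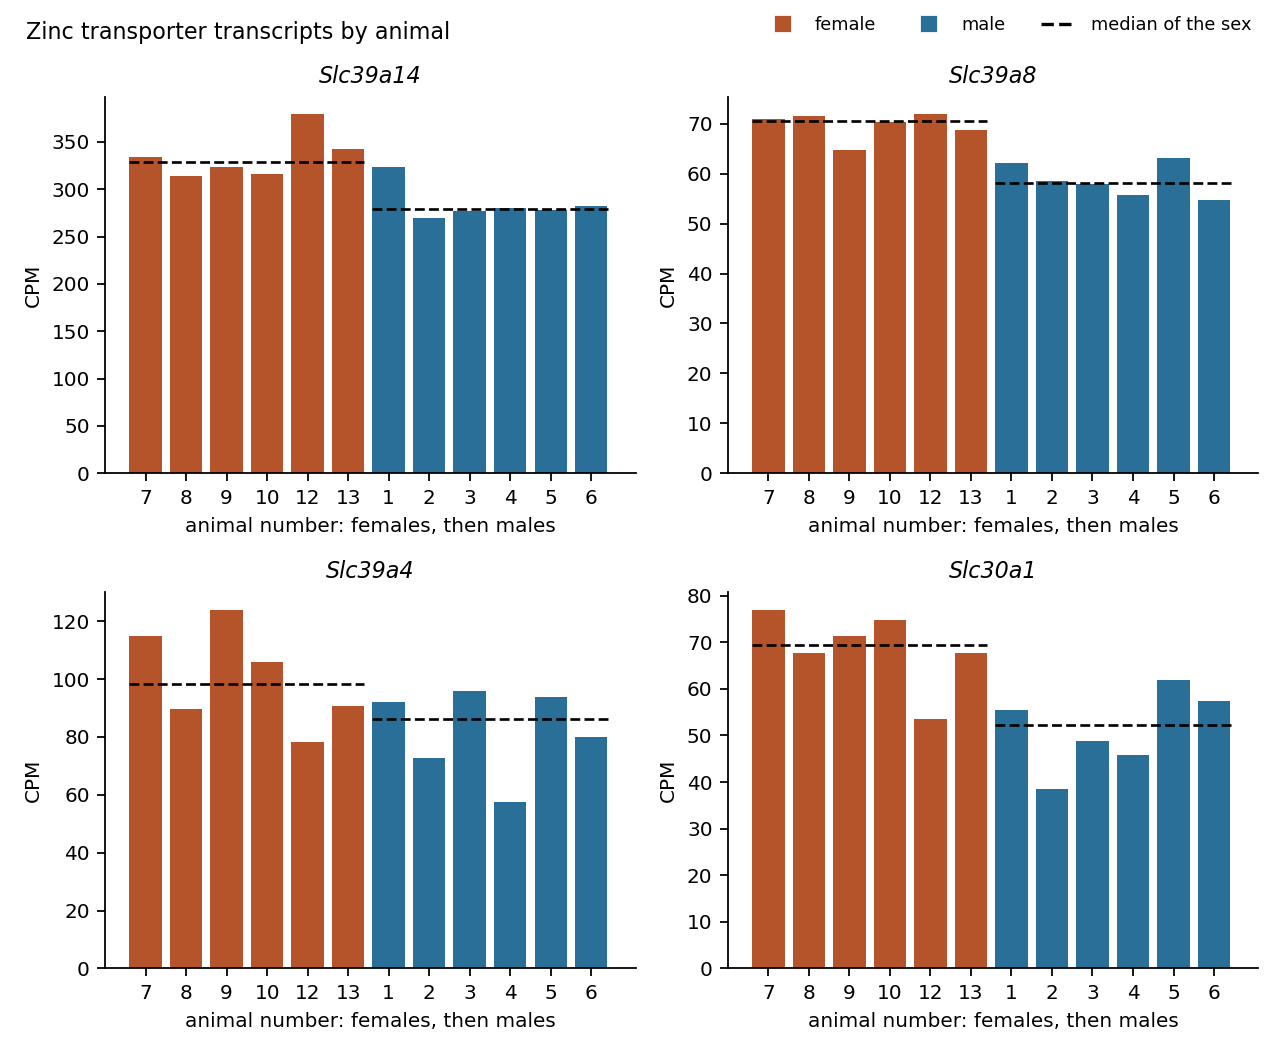
Level of 4 zinc transporter genes in each animal, as bars in CPM from 0, with a dashed line at the median of each sex (6 females, 6 males). Slc39a8 separates the sexes in every animal, while the sexes overlap for the other genes: females 8 and 10 lie below male 1 for Slc39a14, and female 12 lies below males 1, 5 and 6 for Slc30a1.

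Covariation was described within each sex over 6 animals, as Pearson's r and Spearman's rho of log2 CPM, for 15 pairs of genes in each sex. Since sampling 6 animals leaves wide error and the genes had been proposed with these counts known, no p-value is given. Mt1a and Mt2A had an r of 0.95 and a rho of 1.00 in females, and an r of 1.00 and a rho of 1.00 in males. The order of animals was therefore the same for both genes in each sex. How far reads that fit both paralogs raised this r was not tested. With the 2 animals farthest from the median Mt1a level left out, females 9 and 12 and males 3 and 4, r was 1.00 in females and 0.97 in males.

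In males Slc39a4 ran opposite to the metallothioneins. Its order over the 6 males was the exact reverse of that of Mt1a, with a rho of -1 and an r of -0.95, and r was -0.81 without male 4 and -0.85 without males 3 and 4. In females Mt1a and Slc39a4 had an r of 0.52 and a rho of 0.49, and r was -0.88 without females 9 and 12, so the female value rests on those animals. Slc39a8 was the gene with the lowest r with Mt2A in females, -0.92 (rho -0.83), and -0.6 without females 9 and 12. It was -0.36 when libraries were scaled by their totals alone. In males the same pair had an r of -0.43 (rho -0.43), and -0.15 without male 4. Female 9, which was highest in the metallothioneins and lowest in Slc39a8, was also the shallowest library, at 6763879 counts.

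The exporter Slc30a1 and the importer Slc39a4 went the same way in each sex. Their r was 0.83 in females (rho 0.83) and 0.57 in males (rho 0.54), and it was 0.67 without females 7 and 12 and 0.53 without males 2 and 5. Mt1a and Slc30a1 had an r of 0.52 in females (rho 0.09), which became -0.91 without females 9 and 12, and an r of -0.4 in males (rho -0.54), which became -0.85 without males 3 and 4. Over all 15 pairs the median r was -0.32 in females and -0.02 in males, with 5 pairs above 0.5 and 6 below -0.5 in females, and 3 above and 2 below in males.

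**Figure D4:**
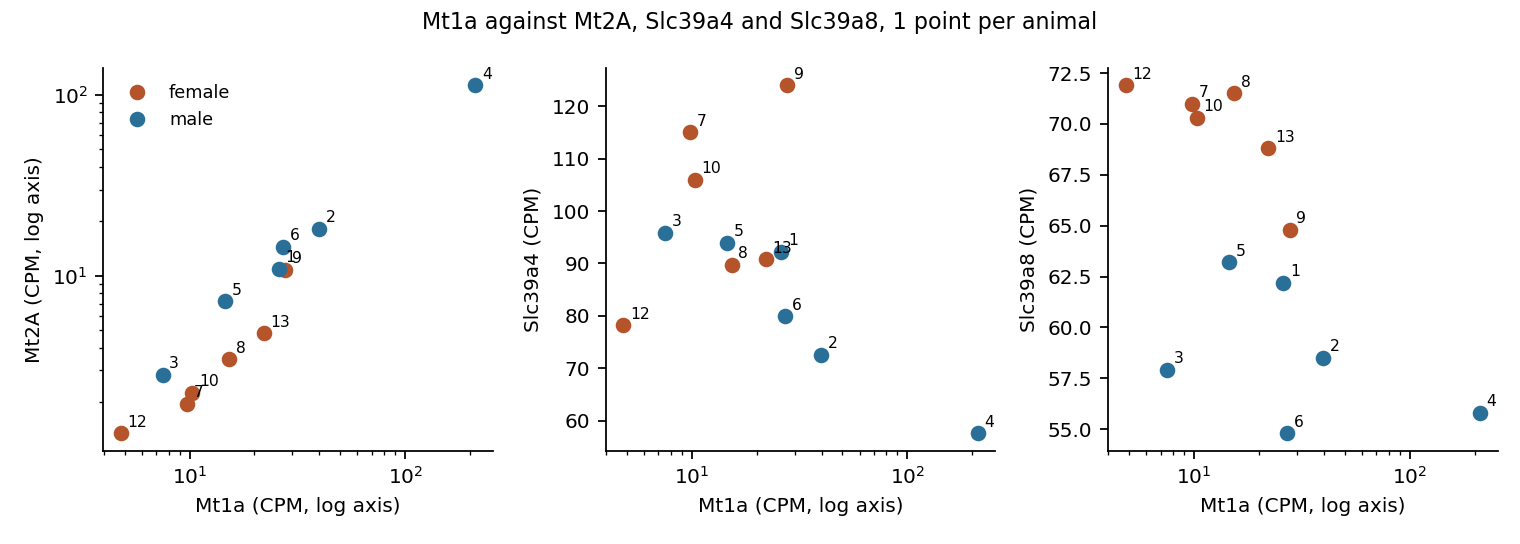
Mt1a level on a log axis against Mt2A (log axis), Slc39a4 and Slc39a8, all in CPM, with 1 numbered point per animal (6 females, 6 males). Mt2A follows Mt1a in both sexes, and female 9 lies beside male 1. Slc39a4 decreases with Mt1a over the 6 males, and female 12, lowest in Mt1a, is also the lowest female in Slc39a4.

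The genes whose levels most resembled those of each member were named over all 12 animals after centring log2 CPM on the mean of each sex, among 7538 other genes of at least 5 CPM. For Mt1a they were Nme2 (r 0.95, rho 0.91), Rab34, Pgls, Gabarapl1 and Mrpl54 (r 0.91 to 0.92). Nme2 encodes a nucleoside diphosphate kinase and stood at 82.2 to 92 CPM in females, 151 CPM in male 4 and 103 to 118 CPM in the other males. Without male 4 Nme2 stayed the nearest gene to Mt1a (r 0.93, rho 0.93), followed by Ndufb8, Atp5h, Taf11 and Atp5e (r 0.9 to 0.93). For Mt2A the nearest was Rgl3 (r 0.92), and without male 4 Ndufb8 (r 0.91). Between the lowest and the highest animal, Nme2 varied far less than Mt1a. The nearest genes, here and below, were picked as the highest of 7538 values of r over few animals. The r that such a pick would reach by sampling alone was not tested.

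For Slc39a14 the nearest gene was Hdmcp over 12 animals (r 0.92, rho 0.81) and Stat3 without male 4 (r 0.96, rho 0.7), which encodes the transcription factor that interleukin 6 signalling activates. Stat3 was highest at 178 CPM in female 12 and 159 CPM in male 1, the animals with the most Slc39a14 of their sex, and without these 2 animals r was 0.75. For Slc39a4 the nearest was Optn (r 0.93), and without male 4 Impa2 (r 0.98), an inositol monophosphatase gene. For Slc30a1 the nearest was Cyp2b2 (r 0.9), and without male 4 Slc35d1 (r 0.92). For Slc39a8 the nearest was Rp2 (r 0.85), and without male 4 Pphln1 (r 0.88).

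The correlation of acute phase genes with Mt1a rested on male 4. Of 17 listed acute phase genes tested, 12 had an r above 0.5 with Mt1a over 12 animals, where 15.8% of all genes did, and 0 of 17 without male 4, where 8.44% of all genes did. With Slc39a14 the count was 0 of 17 over 12 animals, where 6.82% of all genes did, and 5 of 17 without male 4, where 10.1% did. Of 11 glucocorticoid receptor and target genes 1 had an r above 0.5 with Mt1a over 12 animals, and 0 did without male 4. These correlations share the scaling of each library and are descriptions only.

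The other zinc transporter genes were tested across the sexes with edgeR's quasi-likelihood test, with Benjamini-Hochberg adjustment over all 9943 genes. In this comparison 43.2% of all genes had an adjusted p under 0.05, 20.5% with females higher and 22.7% with females lower, so a called gene is common here. Of 11 other ZIP genes 8 were tested, 3 of them higher in females, 3 lower in females and 2 not called (median log2 fold change -0.04, against -0.01 over all genes). Slc39a5, which encodes ZIP5, an importer of hepatocytes, pancreas and gut, was 2.75-fold higher at 10.3 ± 1.94 CPM in females and 3.71 ± 0.713 CPM in males (log2 1.46, SE 0.151, adjusted p = 3.41e-06), with no overlap. Of 14 listed pancreatic acinar markers 13 were in the tables, at a summed 13 to 82.3 CPM in females and 13.8 to 15.8 CPM in males, with Prss1 and Prss2 at 0 counts in every library, and their part in the level of Slc39a5 was not tested. Slc39a6 was 1.54-fold higher (adjusted p = 0.00632), and Slc39a9, a zinc transporter of the Golgi, 1.46-fold higher (adjusted p = 0.00441). Slc39a7, which releases zinc from the endoplasmic reticulum, stood at 81.2 ± 6.17 CPM in females and 106 ± 13.3 CPM in males (SD, n = 6 each; log2 -0.38, adjusted p = 0.00141). Slc39a13, at 6.55 CPM in females and 7.62 CPM in males, was not called (adjusted p = 0.196).

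Of 9 other ZnT genes 6 were tested, and edgeR called 3 higher in females, 0 lower and 3 in neither direction (median log2 fold change 0.26). At an unadjusted p under 0.05 the lower count was also 0, as it was with DESeq2 and limma-voom, and it was 2 with no filter on low counts. The count of 0 thus covers only genes that passed the filter. Slc30a2 and Slc30a3 did not pass it, and they had 8 and 30 counts in females against 124 and 87 in males. Slc30a7, which loads zinc into the Golgi, was 1.44-fold higher at 17.2 ± 2.09 CPM in females and 11.9 ± 1.86 CPM in males (adjusted p = 0.00171). Slc30a10, which exports manganese from liver cells, was 1.38-fold higher at 70.1 ± 6.18 CPM in females and 51 ± 9.30 CPM in males (adjusted p = 0.00447), and neither gene overlapped between the sexes. Slc30a4 was 1.23-fold higher (adjusted p = 0.00164). Slc30a5, at 63.9 ± 11 CPM in females and 54.9 ± 5.16 CPM in males, was not called (adjusted p = 0.101). Without male 4, 4 ZnT genes were higher in females and 0 lower, and 3 ZIP genes higher and 2 lower.

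**Figure D5:**
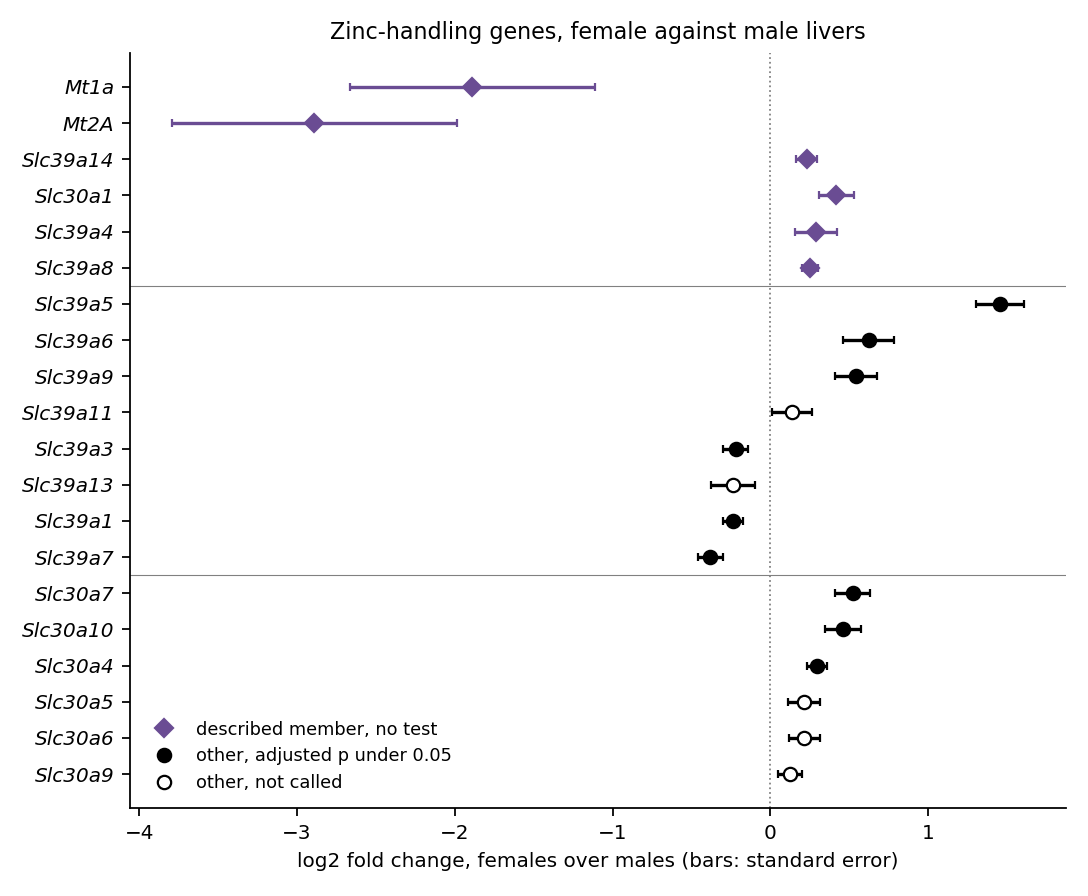
Log2 fold change of females over males with its standard error for the 6 described genes (diamonds, no test), the 8 other ZIP genes tested and the 6 other ZnT genes tested (filled points, adjusted p under 0.05; open points, not called). The metallothioneins lie at -1.89 and -2.89, the 4 described transporters between 0.23 and 0.42, and Slc39a5 lies farthest to the right at 1.46.

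The regulators and the other metal carriers gave a mixed picture. Mtf1, the gene of the zinc sensor, was 1.31-fold higher in females at 16.5 ± 1.57 CPM, against 12.6 ± 2.37 CPM in males (adjusted p = 0.0122). Of 11 tested genes of metal sensing and the oxidative stress response, 2 were higher in females and 3 lower, beside 20.5% and 22.7% of all genes. Nfe2l2, which encodes the oxidative stress regulator NRF2, was 1.41-fold higher (adjusted p = 0.00183), while the glutathione synthesis gene Gclm was lower at 62.4 ± 7.11 CPM in females and 88.8 ± 13.3 CPM in males (adjusted p = 0.00104), and the catalase gene Cat lower at 2242 ± 254 CPM in females and 3094 ± 119 CPM in males (adjusted p = 0.000495). Sod1, a superoxide dismutase that holds copper and zinc, stood at 685 CPM in females and 704 CPM in males and was not called (adjusted p = 0.598).

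Of 14 tested genes of copper, iron and manganese transport, 4 were higher in females and 5 lower, beside 20.5% and 22.7% of all genes. The copper pump gene Atp7a was 2.02-fold higher at 2.62 ± 0.496 CPM in females and 1.30 ± 0.382 CPM in males (adjusted p = 0.000881), and Slc40a1, the ferroportin gene, 1.96-fold higher at 176 ± 26.2 CPM in females and 89.8 ± 17.4 CPM in males (adjusted p = 3.00e-05). The copper chaperone gene Atox1 was lower at 80.5 ± 4.96 CPM in females and 150.0 ± 10.4 CPM in males (log2 -0.90, adjusted p = 5.33e-08), and the copper transporter gene Slc31a2 was lower at 7.96 CPM in females and 11.4 CPM in males (adjusted p = 0.000976). Cp, the ceruloplasmin gene, was not called (adjusted p = 0.651).

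Among genes of the pathways known to induce metallothioneins, the interleukin 6 and acute phase lists held calls in both directions. The glucocorticoid list held calls only lower in females. Over all genes tested 20.5% were called higher in females and 22.7% lower, and the counts below are read beside those shares. Of 11 tested genes of the glucocorticoid receptor and its targets, edgeR called 0 higher in females and 4 lower. At an unadjusted p under 0.05 the higher count was 2, and it was 1 with limma-voom and 0 with DESeq2. Hsd11b1, which regenerates active glucocorticoid, stood at 97.7 ± 40.4 CPM in females and 635 ± 90.0 CPM in males (log2 -2.71, adjusted p = 4.3e-06), the receptor target Fkbp5 at 11.4 ± 1.75 CPM in females and 19.1 ± 2.66 CPM in males (log2 -0.75, adjusted p = 0.000112), and the carboxykinase gene Pck1 had a log2 fold change of -1.90 (adjusted p = 0.00408), and -2.52 without female 12. Klf9 had a log2 fold change of -0.29 (adjusted p = 0.0368), a call lost with upper quartile factors, on leaving out female 7, 8, 9 or 13, and on leaving out male 1, 2, 3 or 4. Tat, a tyrosine aminotransferase gene, was not called (adjusted p = 0.955). Of 8 tested genes of interleukin 6 and STAT3 signalling, 3 were higher in females and 2 lower. Osmr, the oncostatin M receptor gene, was 5.11-fold higher at 6.98 ± 2.55 CPM in females and 1.39 ± 1.22 CPM in males (log2 2.35, adjusted p = 0.000614; log2 3.06 without male 4), and Cebpb, a transcription factor gene of the acute phase, lower at 54.0 ± 7.14 CPM in females and 82.9 ± 17.5 CPM in males (adjusted p = 0.00137). Of 17 tested acute phase genes, 2 were higher in females and 7 lower, and without male 4 these counts were 2 and 6. The lower count was 4 without female 7 or without female 8, and the higher count was 0 on leaving out female 8, 10 or 13, or male 1 or 2, and 1 on leaving out female 12, or male 3, 5 or 6.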

How the data were processed

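Liver RNA of 12 obese ZSF1 rats, 6 females and 6 males was, per the labels' protocols, made into libraries with the TruSeq kit of Illumina and sequenced. The authors deposited raw read counts per gene symbol for each animal, and the submitters' processing notes name Bowtie2 2.0.2, DESeq and the rn4 genome. The counting tool and its strand setting are not given in the sources used here. Its treatment of reads that fit several genes shows only in the names of rows kept apart from the genes. Paralogs and antisense partners are therefore uncertain. The 5 rows that name no gene held 27.1% to 31.7% of each library's counts and were left out. They are named no_feature, ambiguous, too_low_aQual, not_aligned and alignment_not_unique.

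Counts were scaled with TMM factors to CPM. Females were tested over males in edgeR 4.0.16 (R 4.3.3) with the robust quasi-likelihood test, after filterByExpr with a minimum count of 10, and p-values were adjusted by Benjamini-Hochberg over 9943 genes at 0.05. The procedure was also run on simulated counts with the same dispersion for every gene and no outlying animal. That run does not show how calls behave with an animal such as male 4. Alternatives were other scalings and filters, DESeq2 1.42.0, limma 3.58.1 with voom, and each animal left out. Correlations used log2 CPM with a prior count of 2.

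The 6 genes and all gene lists were chosen with earlier results of these data known, so the 6 genes have no test. From each list the text names up to 4 called genes with the largest fold change and the most abundant gene not called, and for each of the 6 genes those with the highest r. No pair of same-sex libraries agreed within sampling noise (lowest chi-square per degree of freedom 6.34 over 30 pairs). Nothing says how the animals were related, so p-values measure the spread between these samples. Intervals cover counting error only.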

Additional observations from a re-analysis of the deposited data

Results flagged for a closer look

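In each sex the highest or lowest of the 6 animals was set against the others for the 6 genes and the 34 named pathway genes, for a gap to the nearest neighbour past Dixon's 95% critical value. Among the pathway genes 14 of 68 groups held such an animal, and male 4 was the animal in 10 of the 14. The pathway lists were chosen with earlier results of these data known, and the same animal recurs across genes. This count is therefore a description and is set against no chance rate. The 6 genes were chosen by these same counts, so their 4 values below are a description and are set against no chance rate.

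Mt1a stood at 212 CPM in male 4, where the other males held 7.5 to 39.8 CPM. Mt2A stood at 113 CPM in male 4, where the other males held 2.83 to 18.2 CPM. Among females Mt2A was 10.8 CPM in female 9, where the others held 1.35 to 4.82 CPM. Slc39a14 was 323 CPM in male 1, where the other males held 270 to 282 CPM.

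Of 18 listed acute phase genes 16 were higher in male 4 than in every other male, Hamp and A2m being the exceptions. In male 4 Orm1 stood at 9550 CPM, Hp at 30700 CPM, Hpx at 17800 CPM, Serpina3n at 7390 CPM and S100a9 at 14.1 CPM. Male 4 was also the high animal for Cp at 4010 CPM, Slc40a1 at 123 CPM, Cebpb at 116 CPM, Slc39a13 at 9.93 CPM and Osmr at 3.84 CPM. Male 6 was high for Slc39a7 at 132 CPM. Female 12 was high for Pck1 at 1740 CPM and Serpina3n at 2540 CPM, and female 7 for Atp7a at 3.55 CPM.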

How the results depend on the processing

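The log2 fold change of females over males kept its sign for all 6 genes under the 19 alternatives run. With 1 animal left out it ran from -2.12 to -0.64 for Mt1a and from -3.27 to -1.53 for Mt2A, both nearest 0 without male 4, and limma-voom gave -1.24 for Mt1a and -2.23 for Mt2A. With 1 animal left out, the lowest and highest r of Mt1a and Mt2A were 0.95 and 0.98 in females, and 0.99 and 1.00 in males. Scaled by library totals alone, the female r of Slc39a8 was -0.37 with Mt1a and -0.36 with Mt2A. Of 27 called genes among the 34 named pathway genes 0 changed sign and 4 lost their call under at least 1 alternative (Klf9, Jak2, S100a9 and Orm1). Of the 7 not called, 2 changed sign, Tat (-0.15 to 0.21) and Il6st (-0.00164 to 0.14). Genes called over all ran from 3854 to 4627 with 1 animal left out, against 4298 with all 12. The count of other ZnT genes lower in females was 0 with all animals and 0 to 2 with 1 left out, and that of glucocorticoid genes higher in females 0 and 0 to 1, and 1 with upper quartile factors or library totals. For these cases the cause was not tested. Depth limits Mt2A most, with 18 counts in the female lowest in it. No paired analysis was possible because females and males share no animal number.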

Other observations

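Of the zinc transporter genes too low for testing, Slc30a2, which encodes a vesicular zinc transporter, had 8 counts over the 6 females and 124 over the 6 males. It was singled out after its values were seen. Its level was 0 to 0.182 CPM in females and 0.611 to 1.88 CPM in males, with a count in 3 of 6 females and 6 of 6 males, and the ratio of males over females was 13.7 (95% interval 6.74 to 32.5, counting error only). Slc30a3 had 30 counts in females and 87 in males, and the ratio of males over females was 2.56 (1.68 to 4.02), with overlapping levels. Slc30a8 had 2 counts in females and 1 in males, Slc39a12 had 0 and, in males, 2, and Slc39a2 had 0 in both.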
